A study of Mus musculus with 8 samples.

Results

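Alpha- and beta-tubulin transcripts were followed in NIH3T3, an established line of mouse embryonic fibroblasts, 1 day after vehicle or Mic-628 was added. The set is 10 genes, 4 alpha-tubulins (Tuba1a, Tuba1b, Tuba1c, Tuba4a) and 6 beta-tubulins (Tubb2a, Tubb2b, Tubb3, Tubb4b, Tubb5, Tubb6), taken by gene symbol from a deposited poly(A) RNA-seq table of 78298 transcript rows. Each symbol had 1 row. Cells of both groups were wild type and grown in DMEM with fetal bovine serum. They differed in treatment: 4 libraries received vehicle and 4 received Mic-628, for which the series title names a Period1 inducer. The dose and the make-up of the vehicle are not given in the sources used here. Each library has a batch number from 1 to 4, which 1 library of each group carries. Whether replicates were separate cultures is not in the labels, so the p-values reflect how far these libraries scatter, and that scatter may be technical. The libraries held 18.1 M to 23.2 M counts (M, mega) on the listed rows, and the 10 tubulins took 0.293% to 0.305% of them with vehicle and 0.273% to 0.276% with Mic-628.

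Alpha- and beta-tubulin proteins join into a dimer that polymerizes into microtubules, the hollow filaments that carry cargo, shape the cell and build the mitotic spindle. Mammals have several genes for each partner, called isotypes, whose proteins differ mostly in their acidic tails. Cells adjust tubulin mRNA to the pool of free dimer: the factor TTC5 binds the start of the nascent tubulin chain on the ribosome and, through SCAPER and the CCR4-NOT complex, brings about decay of the mRNA.

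That recognition depends on the first residues of the chain, so the first 24 coding bases of 9 of the genes are shown, with the first 4 codons in capitals. They were read 5′ to 3′ from the GENCODE M21 transcripts of GRCm38.
Tuba1a: ATGCGTGAGTGCatctccatccat
Tuba1b: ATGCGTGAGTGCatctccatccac
Tuba1c: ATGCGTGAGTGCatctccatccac
Tuba4a: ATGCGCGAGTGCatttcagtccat
Tubb2a: ATGCGCGAGATCgtgcacatccag
Tubb2b: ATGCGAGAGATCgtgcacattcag
Tubb3: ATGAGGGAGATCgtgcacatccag
Tubb4b: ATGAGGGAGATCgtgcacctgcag
Tubb5: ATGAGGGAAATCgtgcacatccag
Tuba1a, Tuba1b and Tuba1c had the same first 4 codons, as did Tubb3 and Tubb4b. Translated, these codons read Met-Arg-Glu-Cys in every alpha-tubulin shown and Met-Arg-Glu-Ile in every beta-tubulin shown. The differences in these codons within each family therefore leave the encoded residues the same.

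The genes are so alike that some reads match several of them. Each transcript was cut into every window of 101 bases, the read length in the labels, and each window was searched on both strands in the GENCODE M21 transcripts of all other genes. Tubb5, Tubb6 and Tubb3 shared 0% of their windows with another gene of that release. Rows of the deposited table with no transcript in GENCODE M21 were outside this search. Tubb2b shared 27.6% and Tubb2a 36.7%, mostly with each other (540 windows in common). Tubb4b shared 30.2%, chiefly with its pseudogene Tubb4b-ps1. Among the alpha-tubulins, Tuba1a shared 65.7% of its windows, Tuba1b 72.7% and Tuba1c 53.3%, with one another and with several predicted genes. Tuba4a shared 46.7%, all with Stk16. The coding regions of Tuba1a and Tuba1b were identical at 98.3% of positions, and those of Tubb2a and Tubb2b at 96.5%. How reads with several matches were counted is not given in the sources used here, so the values of the Tuba1 genes, of Tubb2a and Tubb2b, and of Tubb4b are uncertain to that extent. Tuba4a and Tubb6 overlap well-counted rows on the other strand, and their values are uncertain because whether counting used strand is not given either.

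Levels per length are given in FPKM, fragments scaled by exon length in kilobases and by library size, as the authors deposited them. Tubb5, the constitutive beta-tubulin, stood far above the rest at 745 ± 12.7 FPKM with vehicle (SD, n = 4 here and below). Next came Tuba1b, a widely expressed alpha-tubulin, at 121.7 ± 3.14 FPKM and Tuba1a, the main alpha-tubulin of developing neurons, at 111 ± 2.61 FPKM. The other widely expressed beta-tubulins followed, Tubb4b at 74.1 ± 2.95 FPKM and Tubb6 at 67.1 ± 1.2 FPKM, and then the alpha-tubulin Tuba1c at 36.9 ± 1.04 FPKM. Below them were Tubb2a (17.6 ± 1.19 FPKM) and Tubb2b (14.4 ± 0.561 FPKM), both known from neural tissue, and Tuba4a (5.92 ± 0.338 FPKM), which is encoded without the final tyrosine of most alpha-tubulins. Tubb3, the classic neuronal beta-tubulin, was lowest at 3.85 ± 0.137 FPKM. Over all 8 libraries the ranges of neighbours in this order were separate, except for Tuba1b with Tuba1a and Tubb2a with Tubb2b. In both of these pairs the first was nonetheless higher within each of the 8 libraries.

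Tubb5 made up 80.8% ± 0.367 of beta-tubulin FPKM with vehicle and 79.4% ± 0.631 with Mic-628. Alpha-tubulin was more evenly divided: Tuba1b had 44.2% ± 0.425 and Tuba1a 40.3% ± 0.639 with vehicle, and 45.1% ± 1.87 and 39.2% ± 1.44 with Mic-628. Summed beta-tubulin FPKM was 909, 941, 916 and 922 in vehicle replicates 1 to 4 and 841, 847, 849 and 834 in Mic-628 replicates 1 to 4. Those groups did not overlap, and the ratio of their means was 0.914. The mean sum went from 922 to 843 FPKM and Tubb5 alone from 745 to 670 FPKM, so this fall was mostly that of Tubb5. Summed alpha-tubulin FPKM was 269, 279, 274 and 279 with vehicle and 255, 246, 270.1 and 278 with Mic-628. Here Mic-628 replicates 3 and 4 lay within the vehicle range, and the ratio of means was 0.952. The beta to alpha ratio of summed FPKM was 3.35 ± 0.035 with vehicle and 3.22 ± 0.195 with Mic-628, with overlap between the groups.

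**Figure D1:**
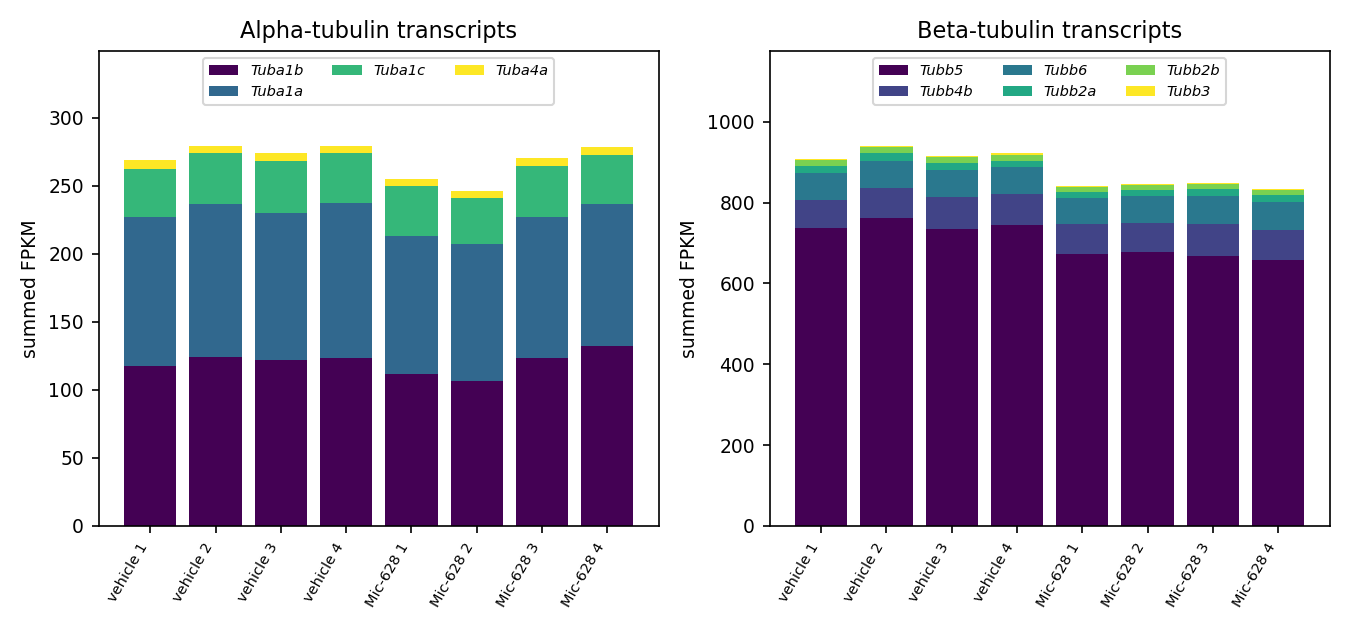
Summed FPKM of the 4 alpha-tubulin and the 6 beta-tubulin genes in each library, with each gene as a segment of its bar. Tubb5 fills most of every beta-tubulin bar, and the beta-tubulin bars of the Mic-628 libraries (834 to 849 FPKM) are all shorter than those of the vehicle libraries (909 to 941 FPKM).

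After Mic-628, 3 of the 10 tubulins fell, Tubb5, Tubb2b and Tuba1a, and 0 rose. The falls were small: Tubb2b went to 0.804 of its vehicle level, Tubb5 to 0.899 and Tuba1a to 0.925. The other 7 were not called, with log2 fold changes from -0.15 for Tubb3 to 0.0069 for Tubb6. A row is called where the adjusted p of edgeR's quasi-likelihood test, over 17128 tested rows, is under 0.05. By that rule 2.25% of all tested rows were lower and 2.13% higher (4.37% in either direction). The median log2 fold change of the 10 tubulins was -0.10, against -0.0040 over all tested rows. At an unadjusted p under 0.05 edgeR also gave 3 tubulins lower and 0 higher, against 8.81% of all tested rows lower and 8.15% higher. DESeq2 at an adjusted p under 0.05 gave 3 lower and 0 higher, against 2.05% and 2.04% (4.09% in either direction) of its rows with an adjusted p. Every Mic-628 library lay below every vehicle library for Tubb5, Tubb2b and Tuba1a, 3 of the 10 genes, which held for 5.07% of all tested rows. In bulk RNA, fewer cells of a type and less RNA per cell cannot be told apart.

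**Figure D2:**
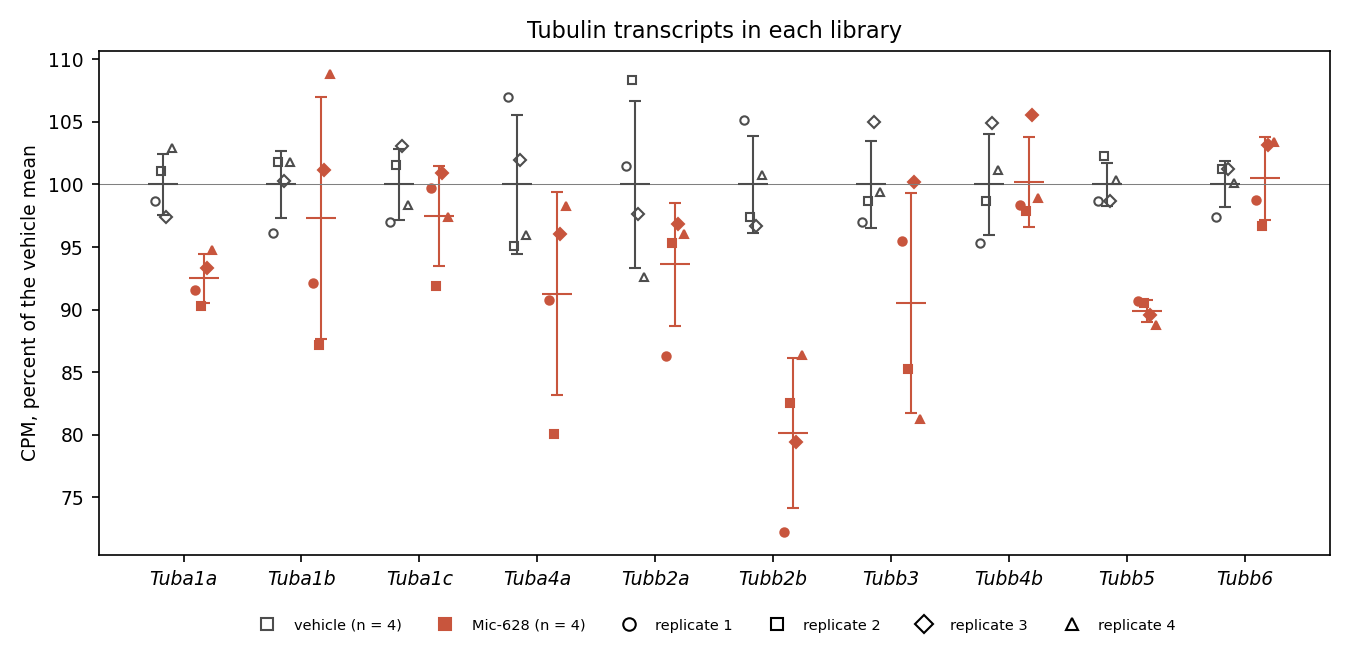
CPM (counts scaled to library size) of each tubulin in every library as a percentage of that gene's vehicle mean, with points for libraries of both groups and bars for mean and SD (n = 4). The groups separate for Tuba1a, Tubb2b and Tubb5 and overlap for the other 7 genes.

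Tubb5 (chromosome 17, 36144813 to 36149198, minus strand, mm39) is the isotype that supplies most beta-tubulin in many dividing cells. Its CPM values (counts scaled to library size, with TMM) were 2098, 2175, 2099 and 2134 in vehicle replicates 1 to 4 and 1929, 1925, 1905 and 1887 in Mic-628 replicates 1 to 4. The groups were tight and apart: the lowest vehicle library exceeded the highest Mic-628 library by 169 CPM, against an SD of 36.4 CPM with vehicle and 19.3 CPM with Mic-628. The log2 fold change was -0.15 (SE 0.029, adjusted p = 0.00191 by edgeR), or 0.899-fold with a 95% interval of 0.862 to 0.937. Within batches 1 to 4 the log2 difference was -0.12, -0.18, -0.14 and -0.18. The call held without any single library, and was lost without both libraries of batch 2 (log2 fold change -0.14; edgeR adjusted p = 0.0635).

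Tubb2b (chromosome 13, 34310731 to 34314337, minus strand) had the largest relative fall of the 10. It encodes a beta-tubulin best known from migrating neurons of the developing cortex. Vehicle replicates 1 to 4 had 35.6, 33.0, 32.8 and 34.1 CPM, and Mic-628 replicates 1 to 4 had 24.5, 28.0, 26.9 and 29.3 CPM. Mic-628 replicate 1 was the lowest, and the groups were 3.48 CPM apart at their closest. The log2 fold change was -0.31 (SE 0.052, adjusted p = 0.000358 by edgeR), or 0.804-fold with a 95% interval of 0.746 to 0.866. Batches 1 to 4 had log2 differences of -0.54, -0.24, -0.28 and -0.22. Without Mic-628 replicate 1 the log2 fold change was -0.27 (edgeR adjusted p = 0.00185).

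Its neighbour Tubb2a (chromosome 13, 34258257 to 34261990, minus strand), a close relative also used in neural tissue, was not called. It had 30.9, 33.0, 29.7 and 28.2 CPM in vehicle replicates 1 to 4 and 26.3, 29.0, 29.5 and 29.3 CPM in the 4 Mic-628 replicates in the same order. These ranges overlapped, and 3 of 4 batches were lower (log2 fold change -0.09, SE 0.053, adjusted p = 0.394 by edgeR). The log2 ratio of Tubb2b to Tubb2a counts was 0.16 ± 0.12 with vehicle and -0.07 ± 0.058 with Mic-628. That difference of -0.23 had a two-sided exact permutation p of 0.0286, the smallest that 4 libraries against 4 can give. The groups did not overlap, which by itself gives that p and makes the difference negative in 4 of 4 batches. Adjusted over the 5 tubulin pairs compared, the exact permutation p was 0.0714 (Benjamini-Hochberg) and missed the threshold. With 4 libraries against 4, a pair can pass that adjustment only if several of the 5 pairs reach the smallest p. The miss therefore does not decide whether the ratio changed. The groups were separated only by the deposited steps of 0.5 counts. With counts rounded to whole numbers they touched at a log2 ratio of 0, and the exact permutation p was 0.0571 (adjusted 0.143).

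The neuronal isotype Tubb3 (chromosome 8, 124138163 to 124148754, plus strand) rested on few reads, 133 to 170 counts per library. It had 7.52, 7.65, 8.14 and 7.71 CPM in vehicle replicates 1 to 4 and 7.40, 6.61, 7.77 and 6.30 CPM in the 4 Mic-628 replicates in the same order. Mic-628 replicates 1, 2 and 4 lay below all vehicle libraries and replicate 3 among them. The gene was not called (log2 fold change -0.15, SE 0.087, adjusted p = 0.416 by edgeR), and its 95% interval of 0.797 to 1.02-fold contains the fold change of Tubb5. Markers of neurons were near 0: of 10 listed, Rbfox3, Dcx and Nefl had 0 counts in all 8 libraries, and Gap43 alone passed the count filter. That list summed to 0.552 to 0.961 FPKM with vehicle and 0.676 to 1.19 FPKM with Mic-628.

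Tubb4b (chromosome 2, 25112172 to 25114714, minus strand) and Tubb6 (chromosome 18, 67523787 to 67535819, plus strand), the next beta-tubulins by level after Tubb5, stayed near their vehicle means. Tubb4b, which is also used in cilia, measured 121, 126, 134 and 129 CPM in vehicle replicates 1 to 4 and 125, 125, 135 and 126 CPM in the 4 Mic-628 replicates in the same order. The ranges overlapped widely. Its log2 fold change was 0.0025 (SE 0.036, adjusted p = 0.985 by edgeR), with a 95% interval of 0.952 to 1.05-fold. Tubb6, a divergent and widely expressed isotype, measured 124, 128, 129 and 127 CPM in vehicle replicates 1 to 4 and 125, 123, 131 and 131 CPM in the 4 Mic-628 replicates in the same order. Again the libraries were mixed, and the log2 fold change was 0.0069 (SE 0.033, adjusted p = 0.950 by edgeR) with a 95% interval of 0.958 to 1.05-fold. Both signs turned when single libraries were left out. A row on the opposite strand within Tubb6, ENSMUSG00000129688, had 52.1% of its counts, and whether counting used strand is not given in the sources used here.

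Set against Tubb5 directly, the log2 ratio of Tubb4b to Tubb5 counts was -4.06 ± 0.066 with vehicle and -3.90 ± 0.057 with Mic-628. The difference was 0.16 and the groups did not overlap, which by itself makes it positive in 4 of 4 batches. Its exact permutation p was 0.0286, or 0.0714 adjusted over the 5 pairs (0.143 with rounded counts), so it too missed the threshold. As for Tubb2b to Tubb2a, several pairs would have had to reach the smallest p for any to pass, so the miss does not decide. Tubb6 was not compared with Tubb5 in this way.

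**Figure D3:**
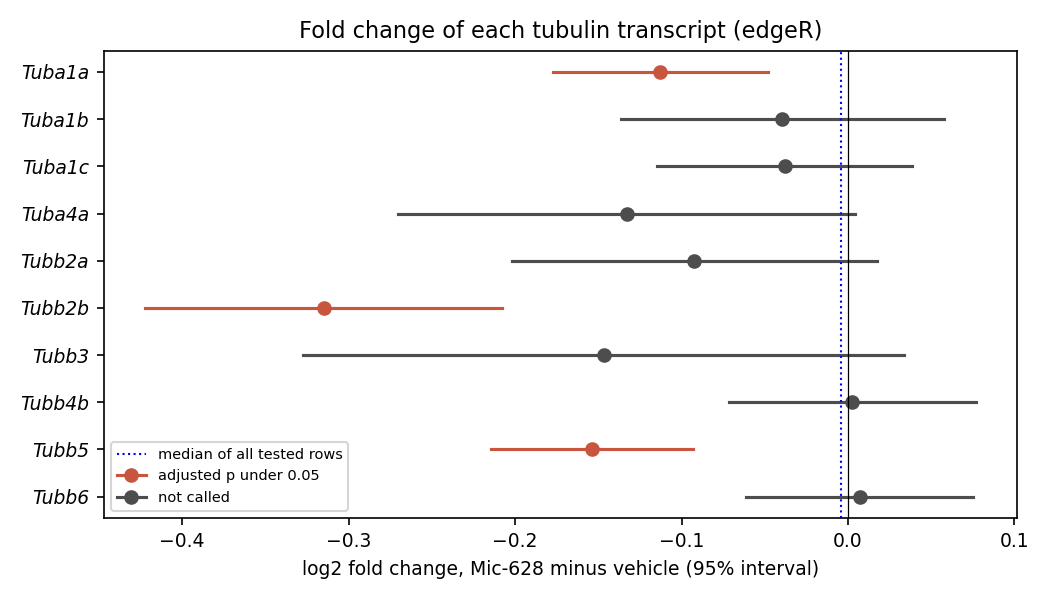
Log2 fold change of each tubulin, Mic-628 minus vehicle, with its 95% interval from edgeR and a dotted line at the median of all tested rows (-0.0040). Tubb2b (-0.31), Tubb5 (-0.15) and Tuba1a (-0.11) are called at an adjusted p under 0.05, while the intervals of the other 7 include 0.

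Among the alpha-tubulins, 3 genes lie close together on chromosome 15: Tuba1a at 98847718 to 98851584 and Tuba1b at 98829306 to 98832446 on the minus strand, and Tuba1c at 98927772 to 98935991 on the plus strand. Tuba1a fell slightly. It had 212, 218, 209.7 and 222 CPM in vehicle replicates 1 to 4 and 197, 194, 201 and 204 CPM in the 4 Mic-628 replicates in the same order. The groups were 5.6 CPM apart at their closest, about the SD of the vehicle libraries (5.29 CPM). Its log2 fold change was -0.11 (SE 0.031, adjusted p = 0.0387 by edgeR), or 0.925-fold with a 95% interval of 0.884 to 0.967, and batches ranged from -0.16 to -0.06. The call rested on most of the libraries. It held without vehicle replicate 1 (edgeR adjusted p = 0.0276) and was lost when vehicle replicate 2, 3 or 4 or any one Mic-628 library was dropped (edgeR adjusted p 0.0528 to 0.133). With the batch number as a block it was lost too (edgeR adjusted p = 0.0708; DESeq2 adjusted p = 0.313).

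Tuba1b was uneven under Mic-628. Vehicle replicates 1 to 4 had 219, 232, 229 and 232 CPM, and Mic-628 replicates 1 to 4 had 210.2, 199, 231 and 248 CPM. Mic-628 replicates 1 and 2 were below all vehicle libraries and replicate 4 above them, so the coefficient of variation was 2.67% with vehicle and 9.89% with Mic-628. The gene was not called (log2 fold change -0.04, SE 0.047, adjusted p = 0.738 by edgeR). Tuba1c had 76.3, 79.9, 81.1 and 77.4 CPM in vehicle replicates 1 to 4 and 78.4, 72.3, 79.4 and 76.6 CPM in the 4 Mic-628 replicates in the same order. Those libraries were mixed apart from a low Mic-628 replicate 2 (log2 fold change -0.04, SE 0.037, adjusted p = 0.668 by edgeR).

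Ratios among the 3 Tuba1 genes gave no p under the threshold. The log2 ratio of Tuba1a to Tuba1b counts moved by -0.07 (exact permutation p = 0.343, adjusted 0.429 over the 5 pairs), that of Tuba1a to Tuba1c by -0.07, negative in 4 of 4 batches and larger than the pooled SD of 0.057 (exact permutation p = 0.114, adjusted 0.190), and that of Tuba1b to Tuba1c by -0.0063 (exact permutation p = 0.971, adjusted 0.971). A further row, Gm49450, runs on the same strand across Tuba1a and Tuba1b and held 2261 counts on average, 51.9% of the Tuba1a count and 47.8% of the Tuba1b count. Gm49450 was itself called lower (log2 fold change -0.17; edgeR adjusted p = 0.0138), and its part in the Tuba1a result was not tested.

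Tuba4a (chromosome 1, 75190872 to 75195938, minus strand) was the lowest alpha-tubulin. It had 19.4, 17.2, 18.5 and 17.4 CPM in vehicle replicates 1 to 4 and 16.5, 14.5, 17.4 and 17.8 CPM in the 4 Mic-628 replicates in the same order. Mic-628 replicates 1 and 2 lay below all vehicle libraries, and the other Mic-628 libraries were among them. Its log2 fold change of -0.13 (SE 0.066, adjusted p = 0.314 by edgeR) was not called, although the point estimate was larger than that of Tuba1a. The gene overlaps Stk16 on the other strand by 1379 bases, 46.7% of its windows were shared with that gene, and the Stk16 row held 199% of its counts (log2 fold change 0.01; edgeR adjusted p = 0.927).

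**Figure D4:**
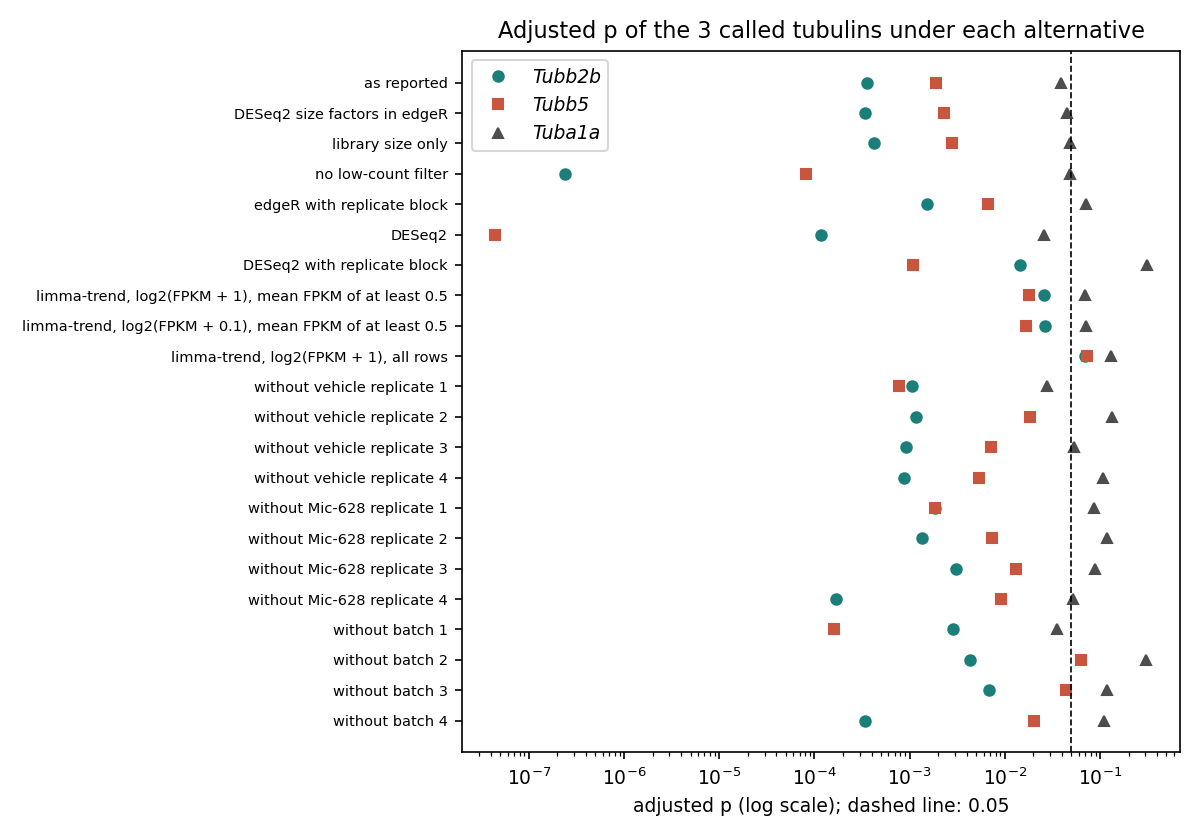
Adjusted p of Tubb2b, Tubb5 and Tuba1a (log axis) under each alternative of tool, scaling, filter, block or library set. Tubb2b passes 0.05 in 20 of 21 alternatives and Tubb5 in 19 of 21, whereas Tuba1a passes in 6 of 21.

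Promoter sequence is shown for Tubb5 and Tuba1a, the called genes with an entry in the RefSeq promoter table (GRCm38.p6). It covers the 250 bases before the RefSeq start site, 5′ to 3′ on the gene's strand. Starts of the counted rows (mm39) were not matched to the RefSeq starts, so part of a window may lie within a counted row. Capitals mark the motifs CACGTG (the E-box that circadian activators bind) and CCAAT (the CCAAT box bound by NF-Y). The Tubb5 window is chr17:35838302-35838551 and the Tuba1a window chr15:98953502-98953751, both on the minus strand.
Tubb5: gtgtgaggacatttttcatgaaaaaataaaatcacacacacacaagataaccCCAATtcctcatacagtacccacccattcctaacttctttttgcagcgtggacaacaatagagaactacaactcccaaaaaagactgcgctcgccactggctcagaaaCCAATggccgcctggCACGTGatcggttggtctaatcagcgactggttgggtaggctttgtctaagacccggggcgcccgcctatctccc
Tuba1a: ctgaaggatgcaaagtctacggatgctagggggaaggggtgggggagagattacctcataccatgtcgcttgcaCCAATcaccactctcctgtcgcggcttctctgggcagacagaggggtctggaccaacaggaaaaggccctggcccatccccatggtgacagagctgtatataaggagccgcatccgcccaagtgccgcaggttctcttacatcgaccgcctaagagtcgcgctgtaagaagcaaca
Windows of 8 of the 10 tubulins were searched on both strands for 4 motifs that do not overlap one another in these windows: the E-box CACGTG, the CCAAT box in the letters CCAAT, the TATA box TATAAA and the cyclic AMP response element TGACGTCA. The E-box was found in 1 of 8, Tubb5, with its first base 75 bases before the start, against 6.02% of 32851 promoter windows of that length. The CCAAT box was found in 5 of 8, against 33.8%. It lay 198 and 90 bases before the start in Tubb5 and 176 bases before it in Tuba1a, while Tubb4b, which was not called, had 5 copies. The TATA box (12.4% of windows) and the cyclic AMP response element (1.55%) were found in Tubb2a alone of the 8, 29 and 59 bases before its start. Only the letters TATAAA were searched for the TATA box, so a related string such as tatataag in the Tuba1a window was not marked. These are matches of letters and were not tested as binding sites. Tubb2b had no entry in the promoter table and Tubb6 was left out, so neither was searched.

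Genes that act with tubulin were read in 7 lists of 101 genes, of which 87 were tested: 0 rose, 1 fell and 86 were not called, so 1.15% were called against 4.37% of all tested rows. At an unadjusted p under 0.05 edgeR gave 8 of the 87 higher and 5 lower, where 17% of all tested rows passed in either direction (8.15% higher and 8.81% lower), and DESeq2 gave 0 higher and 1 lower at an adjusted p under 0.05. The gene that fell was Clip2, which encodes a linker protein of growing microtubule ends, from 70.5 ± 1.21 to 63.8 ± 1.96 CPM (log2 fold change -0.14, SE 0.036, adjusted p = 0.0194 by edgeR). The edgeR adjusted p was 0.0683 with vehicle replicate 3 left out, 0.0635 with the first Mic-628 library left out and 0.0813 with the third left out, so the call was lost each time. The call was also lost without batch 1 (0.0533), batch 3 (0.196) or batch 4 (0.0583), in DESeq2 with the batch block (adjusted p = 0.407) and in limma on FPKM (adjusted p 0.0788, 0.0791 and 0.123), and it held in 11 of 21 alternatives. Its paralog Clip1, a plus-end tracking protein, had a log2 fold change of 0.11 (edgeR adjusted p = 0.0748). The 13 tested stabilisers and end binders had a median log2 fold change of 0.0057.

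The machinery that degrades tubulin mRNA was not called in any of its 12 members (median log2 fold change -0.0022, edgeR; 0 at an unadjusted p under 0.05). Ttc5, which reads the nascent chain, went from 19.5 ± 0.761 to 18.1 ± 1.27 CPM (log2 fold change -0.10; edgeR adjusted p = 0.392), and Cnot2, a CCR4-NOT subunit, had a log2 fold change of 0.07 (edgeR adjusted p = 0.351). Tubulin folding, which covers the CCT chaperonin, prefoldin and the tubulin cofactors, had 0 of 21 called and a median of 0.02, with 3 higher and 1 lower at an unadjusted p under 0.05. The CCT subunits Cct6a (log2 fold change 0.08; edgeR adjusted p = 0.162) and Cct8 (0.07; edgeR adjusted p = 0.236) had its smallest p-values. Tubulin-modifying enzymes had 0 of 17 called and a median of -0.05, with 1 higher and 3 lower at an unadjusted p under 0.05. Among them Vash2, a detyrosinase, had a log2 fold change of -0.11 (edgeR adjusted p = 0.174) and Atat1, the alpha-tubulin acetyltransferase, one of -0.18 (edgeR adjusted p = 0.206).

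Microtubule destabilisers had 0 of 9 called (0 at an unadjusted p under 0.05, edgeR), led by the depolymerizing kinesin Kif2c (log2 fold change 0.07; edgeR adjusted p = 0.351) and the severing enzyme Spast (0.07; edgeR adjusted p = 0.364). The gamma-tubulin ring complex, which nucleates microtubules, had 0 of 11 called although all 11 point estimates were above 0 (median 0.03; 2 higher at an unadjusted p under 0.05, edgeR). Its subunits Tubgcp5 (0.13; edgeR adjusted p = 0.159) and Tubgcp4 (0.08; edgeR adjusted p = 0.285) had the smallest p-values. Of 10 other tubulin genes, 4 were tested and 0 called (0 at an unadjusted p under 0.05, edgeR), among them gamma-tubulin Tubg1 (0.08; edgeR adjusted p = 0.467) and delta-tubulin Tubd1 (0.28; edgeR adjusted p = 0.536), which had 19 to 38.5 counts per library.

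**Figure D5:**
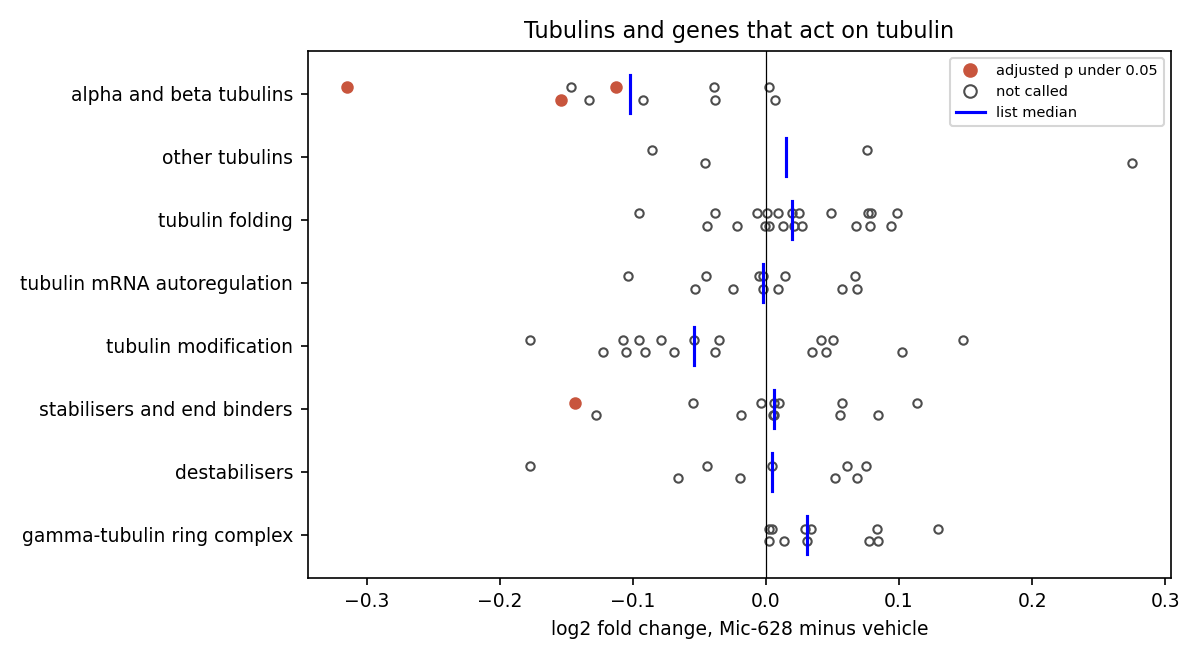
Log2 fold change, Mic-628 minus vehicle, of each tested gene in the tubulin set and the 7 lists of genes that act with tubulin, with a blue mark at each list's median. The tubulins have the lowest median (-0.10), and the 7 lists have medians from -0.05 to 0.03.

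Most fibroblast markers were abundant, and some fell. Postn had only 1 to 6.5 counts per library and was not tested. Of 10 listed, 9 were tested and 4 fell, where 2.25% of all tested rows were lower. They were Col3a1 (log2 fold change -0.57; edgeR adjusted p = 8.57e-07), Fn1 (-0.28; 1.66e-05), Vim (-0.22; 5.37e-05) and Col1a2 (-0.14; 0.00708), which encode collagen chains, fibronectin and vimentin. Col3a1, Fn1 and Vim were called in 20 of 21 alternatives and Col1a2 in 18, and limma on all FPKM rows called none of them (adjusted p 0.0529 to 0.116). Col1a2 was also lost without batch 2 (0.106) or batch 3 (0.0956). Col1a1, Col5a1, Thy1, Pdgfrb and S100a4 were not called. That list summed to 5114 to 5291 FPKM with vehicle and 4464 to 4579 FPKM with Mic-628, and its part in the tubulin values was not tested. Macrophage markers summed to 10.1 to 10.8 FPKM with vehicle and 10.8 to 11.8 FPKM with Mic-628, with Adgre1 and Tyrobp at 0 counts in all 8 libraries. Most of that sum was Cd68 (143 to 192 counts; log2 fold change 0.18, unadjusted p = 0.038, adjusted p = 0.260 by edgeR) and Csf1r (147 to 214.5 counts; log2 fold change 0.21, unadjusted p = 0.0135, adjusted p = 0.149 by edgeR). Epithelial markers summed to 1.86 to 2.18 and 1.89 to 2.77 FPKM, with Epcam at no more than 0.5 counts and Cdh1 at no more than 1 count in a library. Most of it was Krt14 (45.5 to 80.5 counts; log2 fold change 0.06, adjusted p = 0.886 by edgeR) and Krt8 (13 to 29 counts; log2 fold change 0.49, unadjusted p = 0.0374, adjusted p = 0.258 by edgeR). The part of these markers in the tubulin values was not tested.

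Across the 8 libraries, the transcripts whose log2 CPM ran most nearly parallel to the mean log2 CPM of Tubb5, Tubb2b and Tuba1a were found among 8963 rows with a mean CPM of at least 10. The tubulins of the set and rows with predicted, clone or pseudogene names had been left out of these rows. The 5 most parallel were Wdr6 (Pearson r = 0.995; log2 fold change -0.18), Tef (0.987; -0.85), Vim (0.981; -0.22), Nynrin (0.979; -0.27) and Mif (0.979; -0.22). Tef encodes a clock-controlled PAR bZIP factor, Vim an intermediate filament protein and Mif a cytokine. All 5 were lower with Mic-628, so these correlations mostly restate the group difference that the libraries share, and 146 of the 8963 rows reached an r of at least 0.9.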

How the data were processed

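Per the labels, poly(A) libraries were made with a stranded TruSeq kit and read as 101-base pairs. The authors deposited exon counts, in steps of 0.5 and so treated as estimated counts, and FPKM for each row. FPKM recomputed from counts, exon length and the header totals (19.6 M to 25.1 M) differed by at most 5e-04. The submitters' processing notes name the build GRCm39 (mm39) and the tools STAR 2.7.10a, HOMER 4.11 and bcl2fastq, with no roles. Coordinates of genes are those of the deposited table.

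Counts were rounded and fitted over all rows in R 4.3.3 with edgeR 4.0.16 (filterByExpr with a minimum count of 10, TMM, quasi-likelihood F test, no block, Benjamini-Hochberg adjustment over 17128 rows). SE is the log2 fold change divided by the square root of F. DESeq2 1.42.0 and limma 3.58.1 (on log2 of FPKM plus 1 or 0.1) served as alternatives. Ratios of 5 gene pairs were tested by exact permutation over libraries. In simulated data on 17128 genes, the edgeR fit recovered 22 of 50 genes changed 1.2-fold and 35 of 50 changed 1.5-fold, with 13 false calls. Smaller changes were not simulated.

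Vehicle and Mic-628 libraries share batch numbers in the labels, so the number was tried as a block. Deviations of same-numbered libraries correlated at -0.0925, 0.0745, -0.0213 and -0.0949 over 10292 genes. Those of differently numbered libraries correlated at -0.117 to 0.141, so by this measure same-numbered libraries were no more alike than others. Named genes are all 10 tubulins, the called genes and the 2 smallest p-values of each list, and the 5 most parallel transcripts. Members and lists were chosen with earlier results of these data known.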

Additional observations from a re-analysis of the deposited data

Results flagged for a closer look

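In 2 of 20 groups of 4 libraries (10 tubulins in each treatment) 1 library stood apart from the other 3 by Dixon's test, which chance does in about 1 in 20 groups. Tubb2a was lowest in Mic-628 replicate 1 at 26.3 CPM, with the gap to the next library at 0.851 of the range. Tubb4b was highest in Mic-628 replicate 3 at 135 CPM, with the gap at 0.864 of the range.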

How the results depend on the processing

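The tubulins called lower stayed at 3, and those called higher at 0, with DESeq2, DESeq2 size factors, library size only and no low-count filter. The count lower was 2 with the batch block in edgeR or DESeq2, with limma on FPKM of at least 0.5 and at a threshold of 0.01; it was 1 without batch 2, 0 with limma on all FPKM rows (Tubb2b adjusted p = 0.0704, Tubb5 0.0729, Tuba1a 0.131), and 2 to 3 leaving out single libraries (higher 0 to 0). The replicate block changed no tubulin call but that of Tuba1a. Paired by batch, the smallest exact sign-flip p for a ratio is 0.125, which Tubb2b to Tubb2a, Tuba1a to Tuba1c and Tubb4b to Tubb5 had.

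Over all rows, 385 lower and 364 higher became 113 and 130 in DESeq2 with the block, 121 and 156 in limma on log2(FPKM + 1), 120 and 153 with 0.1, 63 and 107 on all FPKM rows, 145 and 186 without batch 2, 128 and 164 without batch 3, and 157 and 173 at 0.01. Leaving out single libraries gave 206 to 429 lower and 220 to 412 higher; the lowest counts came without vehicle replicate 2 (206 and 220) and Mic-628 replicate 3 (213 and 225), and vehicle replicate 3 gave 237 higher. The causes were not tested.

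Signs that turned belonged to uncalled genes. Tubb4b had a log2 fold change of -0.0184, -0.0040 and -0.0235 without vehicle replicate 1, vehicle replicate 2 and Mic-628 replicate 3, and -0.0110 without batch 1. Tubb6 had -0.0043, -0.0059 and -0.0031 without vehicle replicate 1, Mic-628 replicate 3 and Mic-628 replicate 4, and -0.0044 without batch 4. Tuba1b had 0.0111 without Mic-628 replicate 2 and 0.0231 without batch 2, where Tuba1c had 0.0015. Over single libraries left out, log2 fold changes reached -0.0938 for Tuba1b (without Mic-628 replicate 4), 0.0264 for Tubb4b (without vehicle replicate 3) and 0.0257 for Tubb6 (without Mic-628 replicate 2). The log2 ratio of Tuba1b to Tuba1c ranged from -0.0620 to 0.0295 (0.0104, 0.0295 and 0.0169 without vehicle replicate 4, Mic-628 replicate 1 and Mic-628 replicate 2). With rounded counts, an alternative chosen after seeing the data, the Tubb2b to Tubb2a difference of -0.23 had an exact permutation p of 0.0571; the marker genes were also put through the alternatives after their values were seen. Leaving out single libraries, other ratio differences ranged from -0.28 to -0.19 (Tubb2b to Tubb2a), -0.11 to -0.02 (Tuba1a to Tuba1b), -0.10 to -0.05 (Tuba1a to Tuba1c) and 0.13 to 0.19 (Tubb4b to Tubb5).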

Other observations

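Alpha- and beta-tubulin genes outside the set had few or no counts. The testis alpha-tubulin gene Tuba3b had 0 counts in all 8 libraries, Tuba3a, Tubal3 and the platelet beta-tubulin Tubb1 had at most 1 count in a library, and Tuba8 at most 5. Tubb4a, a beta-tubulin of oligodendrocytes and neurons, had 13 to 31.5 counts per library and a log2 fold change of -0.09. Rows of genes that share windows with a tubulin differed widely in counts. Tubb4b-ps2 held at most 16 in a library and Tubb4b-ps1 at most 14, against a mean of 2681 for Tubb4b. Among genes that share windows with the Tuba1 genes, Gm49450 held 2261 counts on average, Gm14150 held 234, Gm6682 held 166, Gm3226 held 61.6, Gm5620 held 33.3, Gm3756 held 16.2 and Gm17383 held 5.56.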
